A study of Canis lupus familiaris with 8 samples.

Results

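REG3A, 1 of 6540 genes that the platform annotation names singly, was represented by 3 of the 23913 probe sets on each array, namely 1606029_at, 1585927_at and 1585928_s_at. They were taken because the annotation gives them no other symbol, and the gene was chosen because its signal was known to be higher in the treated hearts, so its own difference between groups is described here without a test. Cardiac RNA came from 8 male dogs of 23 to 27 kg, 1 Affymetrix canine array per dog. For 2 weeks 4 of them drank water with added methionine, which produces hyperhomocysteinemia (HHcy), an excess of homocysteine in the blood, and 4 were controls without it. These arrays are numbered HHcy 5 to HHcy 8 and control 1 to control 4. The tissue was whole cardiac tissue with the chamber not named, so fewer cells of a type and less RNA per cell cannot be told apart.

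REG3A is a small secreted C-type lectin, also known as pancreatitis-associated protein. In humans and mice, proteins of this family are made mainly by the intestinal epithelium and the inflamed pancreas, bind the peptidoglycan of Gram-positive bacteria and kill them, and are induced through IL22 and IL6-type cytokines that act on STAT3. In mice the related Reg3b is made by injured cardiomyocytes under oncostatin M and attracts macrophages. In the RefSeq dog gene table REG3A lies on chromosome 17, carries the synonyms PAP and REG3G, and is the only gene whose symbol is REG followed by a number. Its nearest protein-coding neighbours there, LOC100687463 and LRRTM4, have no probe set under their gene identifiers, so they were not analysed here. No probe or protein sequence was used here, and probe matches were not checked.

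All 3 probe sets were higher in every HHcy heart than in any control heart, by an amount that varied widely between the treated dogs. Signals are array intensities on a linear scale. The probe set 1606029_at, which had the highest mean of log2(signal + 24) over all 8 arrays, had signals of 2905, 1620, 268 and 6943 in HHcy 5, 6, 7 and 8, against 19.2, 12.1, 29.9 and 21.7 in controls 1 to 4. The lowest HHcy signal of 1606029_at was 8.97 times the highest control signal. On 1585927_at the signals were 3094, 2567, 334 and 6947 in HHcy 5 to 8, against 11.95, 11.98, 7.57 and 4.39 in controls 1 to 4. It was above 1606029_at on each HHcy array and below it on each control array. Here the gap between the groups was wider, the lowest HHcy signal being 27.9 times the highest control signal. The third, 1585928_s_at, had 664, 701, 214 and 2719 in HHcy 5 to 8, against 9.52, 68.1, 93.9 and 10.3 in controls 1 to 4. Its groups lay closest, at 2.28 times, and controls 2 and 3 stood above controls 1 and 4. The groups did not overlap on any of the 3, with HHcy above, as was the case for 7.49% of the 14301 probe sets bright enough to be compared, while 3.89% were apart with HHcy below. Nothing is read from that count, since the gene was chosen on this contrast.

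**Figure D1:**
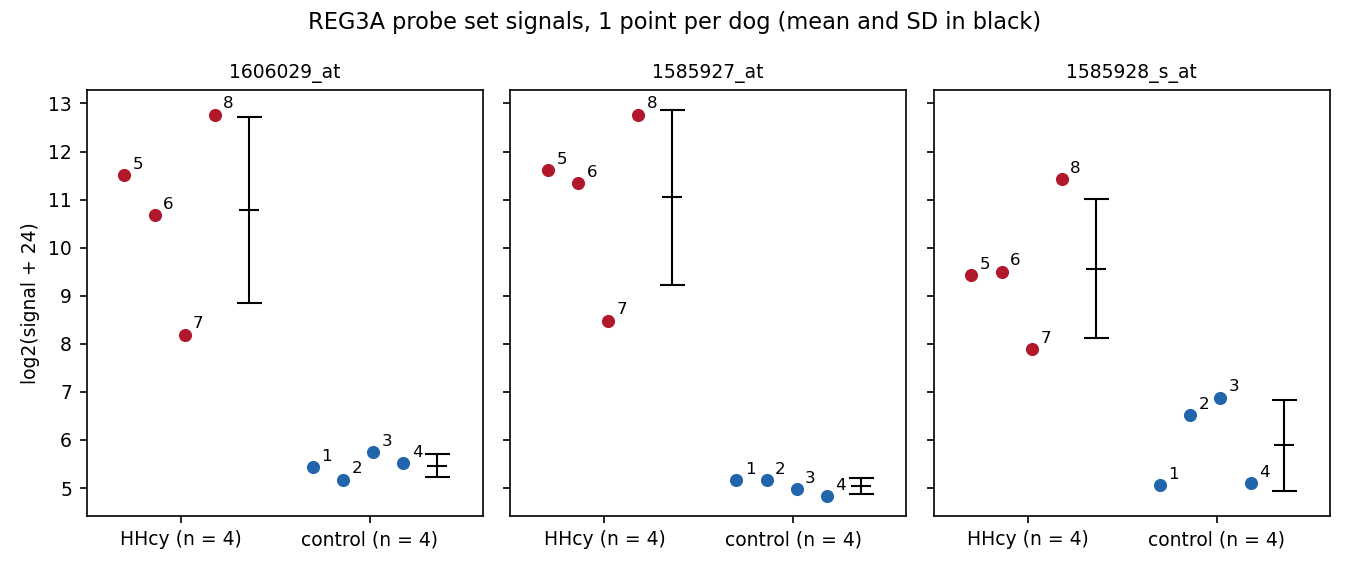
Signals of the 3 REG3A probe sets as log2(signal + 24), HHcy arrays left and control arrays right, 1 numbered point per dog, with the group mean and SD in black. HHcy 8 is highest and HHcy 7 lowest of the treated dogs in each panel, and no treated dog falls to the level of a control.

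Over the 4 dogs of each group, the mean and SD of 1606029_at were 2934 ± 2881 for HHcy, against 20.7 ± 7.33 for controls. Those of 1585927_at were 3235 ± 2748 for HHcy, against 8.98 ± 3.69 for controls, and those of 1585928_s_at were 1074 ± 1119 for HHcy, against 45.5 ± 42.4 for controls (n = 4 each). The SD in HHcy was about as large as the mean, so no single level describes the treated dogs. On the log2(signal + 24) scale the log2 fold change was 5.32 ± 0.74 (SE) for 1606029_at, 6.01 ± 0.70 for 1585927_at and 3.67 ± 0.67 for 1585928_s_at. The control means of 1606029_at and 1585927_at lie under the pseudocount of 24, so these folds depend on it. With a pseudocount of 6 they were 6.06 and 7.16, and with one of 96 they were 4.03 and 4.42, while 1585928_s_at had 4.30 and 2.64. Since detection calls were not used here, whether the control signals stand above background is not known. Ranked among all signals of the same array, 1606029_at lay at percentiles 70.7 to 97.4 in HHcy, against 11.6 to 25.9 in controls. 1585927_at lay at 73.8 to 97.4 in HHcy, against 3.73 to 11.5 in controls, and 1585928_s_at at 67.2 to 93.7 in HHcy, against 7.59 to 51.0 in controls.

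**Figure D2:**
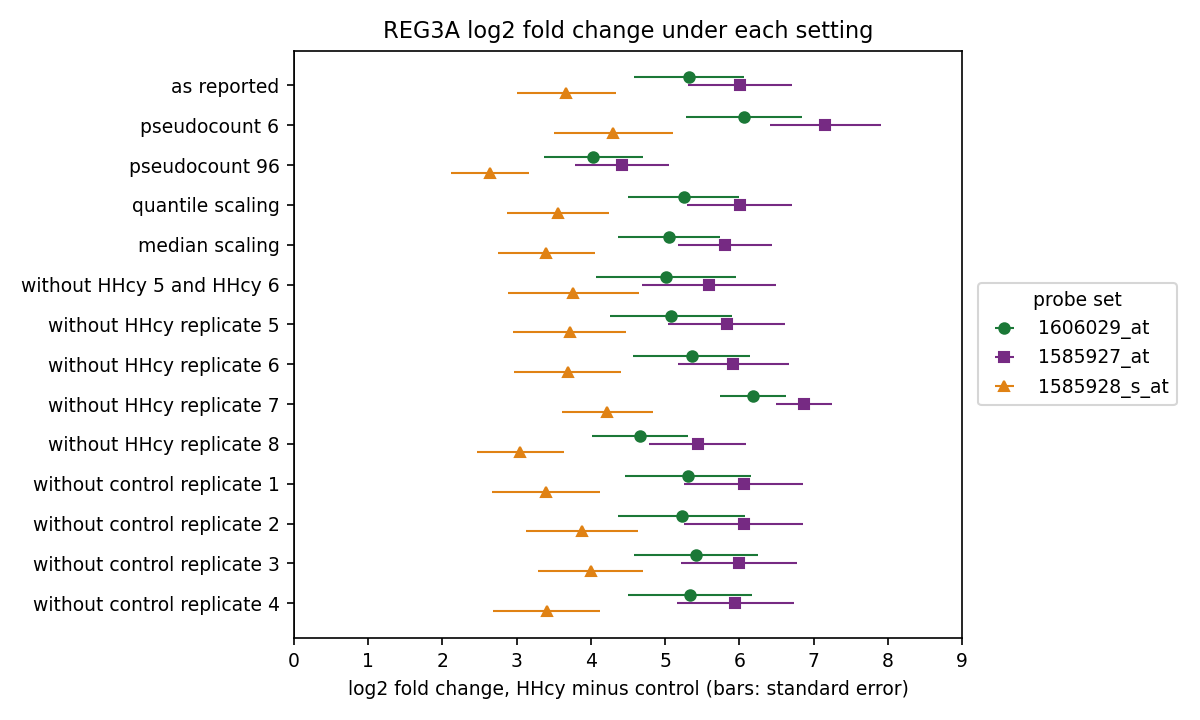
Log2 fold change of the 3 REG3A probe sets, HHcy minus control, with its standard error, as reported and under each alternative setting. All values lie above 0, from 2.64 to 7.16, and the pseudocount and the omission of HHcy 7 or HHcy 8 move them most.

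The 4 treated dogs spanned a 25.9-fold range on 1606029_at, 20.8-fold on 1585927_at and 12.7-fold on 1585928_s_at. HHcy 8 was highest and HHcy 7 lowest on each. HHcy 5 lay above HHcy 6 on 1606029_at and 1585927_at, but the order of this pair turned on 1585928_s_at, where they differed little. Averaged over the 3 probe sets, the log2 rise over the control mean was 6.85 in HHcy 8, 5.38 in HHcy 5, 5.04 in HHcy 6 and 2.72 in HHcy 7. The SD of log2 values among the HHcy dogs was 1.93, 1.82 and 1.44 for 1606029_at, 1585927_at and 1585928_s_at, which lies at percentiles 99.1, 98.9 and 97.2 of all compared probe sets. Among the controls it was 0.24 and 0.17 for 1606029_at and 1585927_at, and 0.95 for 1585928_s_at, at percentiles 18.1, 7.54 and 91.8. The control means of 1606029_at and 1585927_at lie under the pseudocount, which compresses differences between such low signals. Their highest control signals were 2.46 and 2.73 times the lowest, so these small SDs do not show that the controls were alike. Leaving out HHcy 8 gave log2 fold changes of 4.66, 5.44 and 3.05, and leaving out HHcy 7 gave 6.19, 6.87 and 4.22.

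The probe sets tracked each other across the dogs. After each group's mean was subtracted, the deviations of 1606029_at and 1585927_at had a Pearson r of 0.97 over the 8 arrays, and those of 1585928_s_at had 0.79 with each of the others. 1585927_at and 1585928_s_at were designed to the same source sequence and 1606029_at to another. The suffix _s_at marks a probe set that can match more than 1 transcript. The control dogs were not ordered alike, control 3 being highest on 1606029_at and 1585928_s_at and control 2 on 1585927_at.

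RNA quality signs differed between arrays, and the part of RNA quality in the REG3A values was not tested. The mean log2 3'/5' signal ratio of actin and GAPDH, which tends to be high where RNA is degraded, reached 4.02 on HHcy 5 and 6.31 on HHcy 6, while the 4 controls had -0.43 to 1.51. HHcy 8 and HHcy 7, the highest and the lowest for REG3A, had 1.29 and 1.89. HHcy 5, HHcy 6 and HHcy 7 thus lay above every control, so the ratio partly goes with the group. Without HHcy 5 and HHcy 6 the log2 fold changes of 1606029_at, 1585927_at and 1585928_s_at were 5.01, 5.59 and 3.77. HHcy 6 also stood apart in its mean correlation with the other arrays, 0.784 against 0.857 to 0.907 for the rest, and in its cardiomyocyte markers. Those markers, 8 of 10 on the array, summed to 13870 on HHcy 6 and to 177893 to 197042 on the other HHcy arrays. On the controls they summed to 158450 to 255745. On HHcy 6 these markers of the tissue's label were lower and uneven, from 24.5 for TNNT2 to 6889 for MYH7. TNNT2 there lay near the 20th percentile of all values, 24.3, so whether it stood above background is not known. The part of the cardiomyocyte markers in the REG3A values was not tested.

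The genes whose pattern was most like that of REG3A over all 8 arrays were SUPT16H, SLC9A3R1, LOC751814, SLC1A1, SAA1, C3, MVD, KRT18, AFTPH and SERAC1. They were ranked by Pearson r of log2(signal + 24) with 1606029_at, among 5014 other genes each taken by its brightest probe set, and r ran from 0.98 for SUPT16H to 0.94 for SERAC1. The median over all these genes was 0.18. A dimmer MVD probe set had an r of 0.65 with 1606029_at. The groups form separate clusters of REG3A values, so this r is set largely by the gap between them, and it is a description of 8 arrays that share their scaling. LOC751814, which carries the synonym SAA in the RefSeq table, and SAA1 belong to the acute-phase serum amyloid A proteins. LOC751814 had signals of 2557, 1350, 1162 and 3825 in HHcy 5 to 8, against 128 to 162 in controls, the same order of treated dogs as REG3A. A dimmer LOC751814 probe set did not share it, with an r of deviations of -0.38. SLC1A1, a glutamate and cysteine transporter, had 476, 563, 49.0 and 690 in HHcy 5 to 8, against 5.88 to 22.7 in controls. HHcy 7 again stood lowest, at 49.0. Over all 14301 compared probe sets, HHcy 7 was the lowest treated array in 4389. Among the 1071 with every HHcy array above every control array, HHcy 7 was lowest in 445 and HHcy 8 highest in 110. KRT18, a keratin of simple epithelia, had 361, 154, 94.9 and 404 in HHcy 5 to 8, against 16.9 to 79.0 in controls, again in the order of REG3A. SUPT16H, a subunit of a histone chaperone, and SLC9A3R1, a scaffold of epithelial membrane proteins, shared the highest dog and the lowest dog with REG3A at much smaller log2 fold changes of 1.38 and 1.06.

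**Figure D3:**
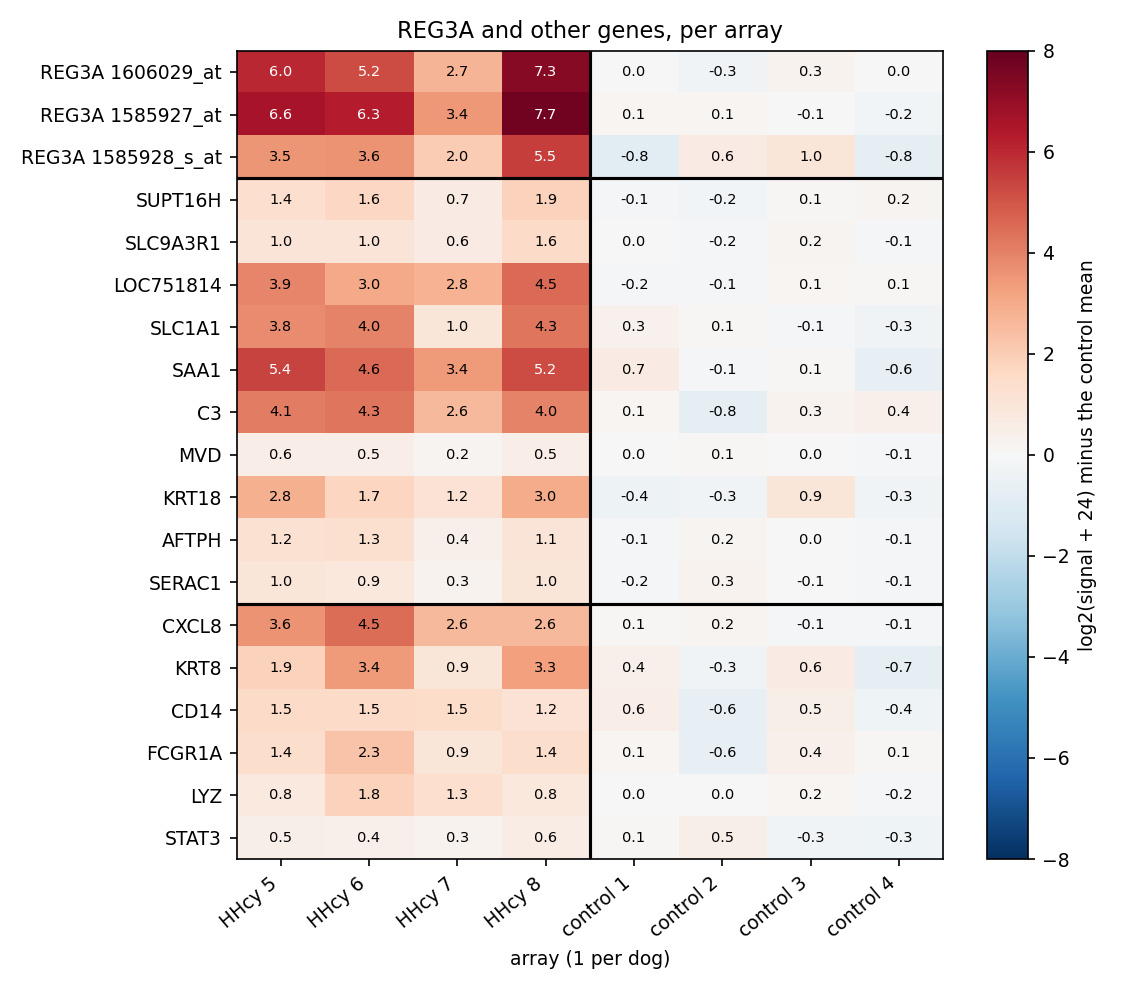
Log2(signal + 24) minus the control mean on each array, for the 3 REG3A probe sets (top), the 10 genes of highest r with REG3A (middle) and 6 further genes (bottom). HHcy 7 is the palest of the treated arrays for REG3A and for the 10 genes, while CD14 and LYZ do not follow that order.

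The deviations from the group means ask which genes varied with REG3A among dogs of the same group. PRKCZ, DNAI1, GPLD1, USP19, SHCBP1, RHPN2, RAD54L, AAMP, KCNE3 and SUPT16H had the highest r, from 0.96 for PRKCZ, an atypical protein kinase C, to 0.90 for SUPT16H, against a median of 0.034 over all 5014 genes. Of these 10, only SUPT16H was also among the 10 above. PRKCZ had 132, 118, 15.5 and 184 in HHcy 5 to 8, against 81.4 to 108 in controls. Like REG3A it was lowest in HHcy 7, but its groups overlapped, with a log2 fold change of -0.033. REG3A varied little among controls on 1606029_at on the log2 scale, where the pseudocount compressed their signals of 12.1 to 29.9. The r values thus rest on the 4 HHcy dogs and above all on HHcy 7. Without that dog, 0 of the 10 stayed among the 10 highest. With 1585928_s_at in place of 1606029_at 1 of the 10 stayed. Without HHcy 7 the r of deviations was 0.95 for LOC751814, 0.84 for SLC9A3R1 and 0.71 for KRT18, but 0.37 for SAA1, 0.26 for SLC1A1 and -0.018 for C3.

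Lists of REG family genes, cytokines and receptors upstream of REG3 genes, JAK and STAT3 signalling, acute-phase genes, antimicrobial proteins and lectins were then compared between HHcy and control hearts, with limma and Benjamini-Hochberg adjustment over all 14301 probe sets, of which 0.0979% passed, 14 higher and 0 lower. The 6 lists hold 114 genes, of which 48 had a probe set and 35 were bright enough to test. Of the 35, 2 rose and 0 fell, namely SAA1 and C3, both of the acute-phase list. SAA1 had 7473, 4081, 1798 and 6638 in HHcy 5 to 8, against 254, 140, 160 and 88.6 in controls 1 to 4, a log2 fold change of 4.65 ± 0.44 (SE, limma adjusted p = 0.00371). The complement component C3 had 8263, 9704, 2990 and 7665 in HHcy 5 to 8, against 516, 263, 569 and 629 in controls 1 to 4, with 3.73 ± 0.39 (SE, limma adjusted p = 0.00377). Both were lowest in HHcy 7 among the treated dogs, as REG3A was, but neither was highest in HHcy 8. HHcy 7 was likewise lowest in 445 of the 1071 probe sets with every HHcy array above every control array. The acute-phase list as a whole did not follow REG3A among the treated dogs. Over its 9 tested genes the r of deviations ran from -0.89 for SERPINA3 to 0.81 for SAA1, with a median of -0.0086. A pair of dimmer C3 probe sets did not pass, at log2 fold changes of 2.21 and 0.91 (limma adjusted p = 0.0866 and 0.306). At an unadjusted p under 0.05, 20 of the 35 were higher and 0 lower, against 11.9% and 5.94% of all compared probe sets. No result is read from these unadjusted counts, since the lists were chosen with earlier results of these data known.

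None of the REG family genes REG1A, REG1B, REG3G and REG4, the REG receptor EXTL3 and the acinar transcription factor PTF1A had a probe set under its own symbol, REG3G being a synonym of REG3A in the dog gene table. Of 22 cytokines and receptors upstream of REG3 genes, 9 had a probe set and 5 were tested, with 0 passing and a median log2 fold change of 1.23, against 0.15 over all compared probe sets. IL33, an alarmin, had a log2 fold change of 1.81 ± 0.42 (SE, limma adjusted p = 0.121), and IL10RB, a subunit of the IL22 receptor, had 1.23 ± 0.33 (SE, limma adjusted p = 0.148). IL33 was highest in HHcy 6 at 3925 and lowest of the treated dogs in HHcy 8 at 854, where REG3A was highest. IL6 itself was too dim to test, with 14.2 to 77.1 in HHcy and 3.64 to 41.4 in controls, and so were TNF, LIF and TNFRSF1A. IL6ST, the shared receptor chain of the IL6 family, had -0.29 ± 0.35 (SE, limma adjusted p = 0.669).

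Downstream of these receptors, 6 of 17 genes of JAK and STAT3 signalling were tested and 0 passed, with a median log2 fold change of 0.58, or 0.22 with median scaling, which moves the median of all compared probe sets to -0.18. STAT3 had 545, 515, 475 and 599 in HHcy 5 to 8, against 414, 550, 315 and 300 in controls 1 to 4. Its groups overlapped, with a log2 fold change of 0.45 ± 0.26 (SE, limma adjusted p = 0.386). The immediate early factors FOS and JUNB had 1.19 ± 0.32 and 0.67 ± 0.26 (SE, limma adjusted p = 0.144 and 0.219). Among acute-phase genes, 13 of 21 had a probe set and 9 were tested, with a median log2 fold change of 1.56. Of the 9, 8 had a positive log2 fold change, 7 with quantile or median scaling. Over all 5014 compared genes, 59.9% were positive as deposited.

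REG3A was set beside other secreted antimicrobial proteins, of which 10 of 24 had a probe set, 6 were tested and 0 passed. Their median log2 fold change was 0.78, or 0.43 with median scaling, and all 6 were positive as deposited and with both other scalings. Lysozyme LYZ had 4165, 8674, 6078 and 4275 in HHcy 5 to 8, against 2353, 2452, 2718 and 2104 in controls 1 to 4, a log2 fold change of 1.20 ± 0.27 (SE, limma adjusted p = 0.121). LYZ separated the groups, yet it was high in HHcy 6 and HHcy 7 rather than in HHcy 8. BPI, a bactericidal protein of neutrophils, had 0.89 ± 0.29 (SE, limma adjusted p = 0.177). The defensins DEFB1 and CBD103 were too dim to test. Of 24 C-type and other lectins, 9 were tested and 0 passed, with a median log2 fold change of 0.88, or 0.53 with median scaling. Of the 9, 7 had a positive log2 fold change, and 6 with median scaling. Nothing is read from these counts of positive genes, since 59.9% of all compared genes were positive as deposited. The endothelial selectin SELE had 1.86 ± 0.48 and CLEC2D 1.09 ± 0.33 (SE, limma adjusted p = 0.141 and 0.162).

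**Figure D4:**
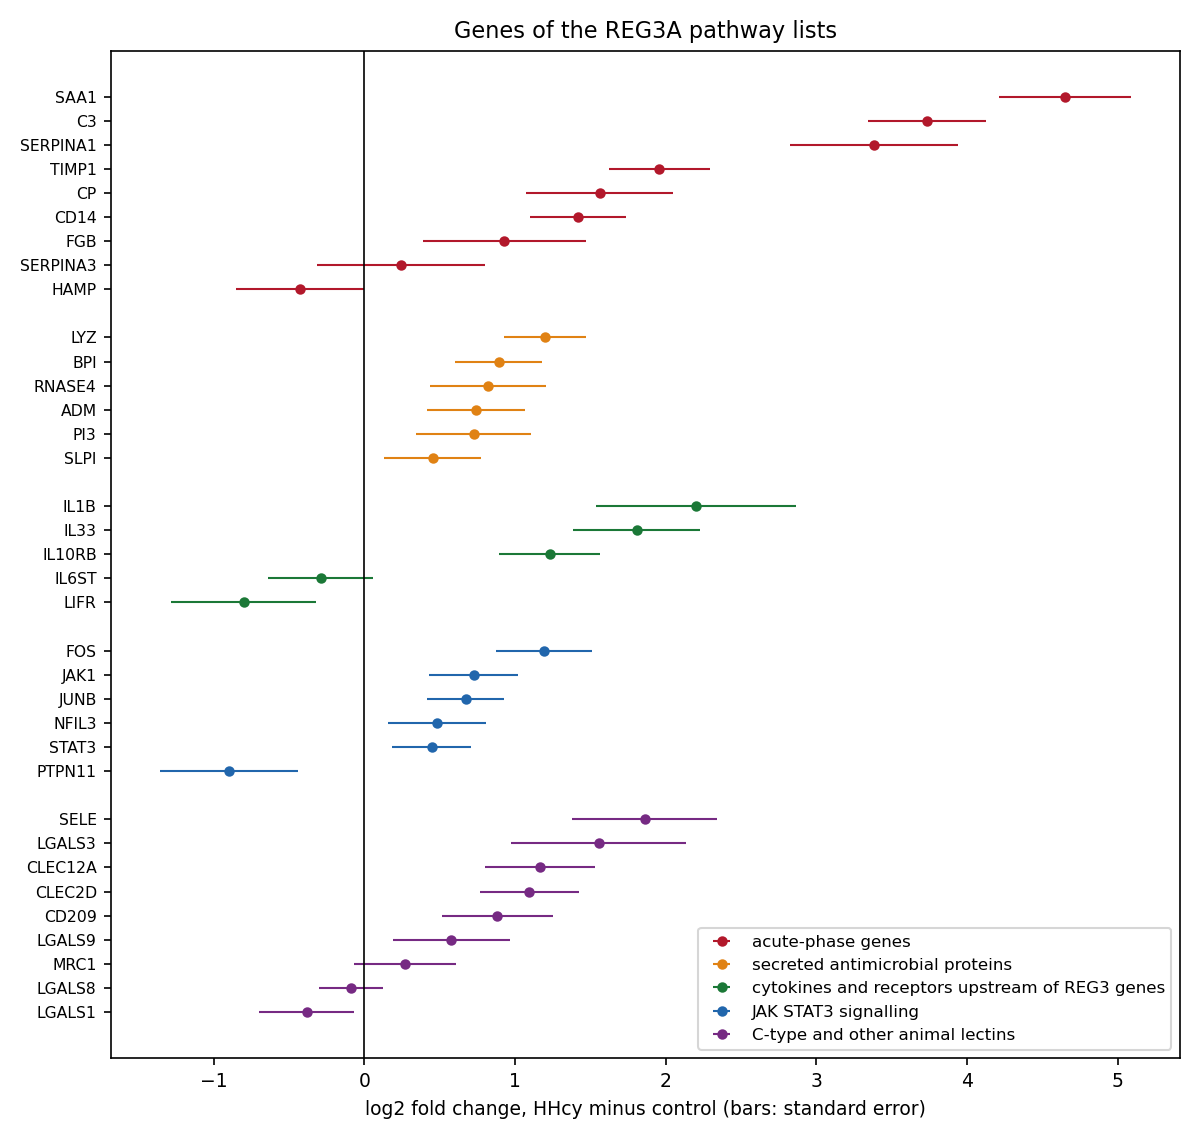
Log2 fold change, HHcy minus control, with its standard error, for the tested genes of 5 lists around REG3A (the REG family list had none). SAA1 and C3 are the only 2 that passed, and most others lie between 0 and 2.2.

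Marker genes of cell types that could carry REG3A or move with it were also measured, and their part in the REG3A values was not tested. Pancreatic acinar markers, 7 of 16 on the array and none at 0, summed to 238 to 553 in HHcy and to 205 to 409 in controls, so the groups overlapped. The lipase PNLIP, a defining acinar product, was too dim to test, with 9.50 to 27.7 in HHcy and 3.06 to 10.9 in controls. CPB1, the only acinar marker with a lower mean in HHcy, was also too dim, at 9.54 against 20.4 in controls. Intestinal epithelial markers, 4 of 12 and none at 0, summed to 536 to 1728 in HHcy and to 730 to 1084 in controls. No tested gene of the acinar or intestinal lists passed, the log2 fold change being 0.53 ± 0.36 for the carboxypeptidase CPA1, 1.57 ± 0.76 for the adhesion molecule EPCAM and -0.046 ± 0.27 for the trefoil factor TFF3 (SE, limma adjusted p = 0.450, 0.301 and 0.942). Markers of simple epithelium and mesothelium, 3 of 8 and none at 0, summed to 297 to 1083 in HHcy and to 118 to 200 in controls, with no overlap, and like REG3A the sum was highest in HHcy 8 and lowest in HHcy 7. The keratin KRT8 had a log2 fold change of 2.39 ± 0.56 and KRT18 of 2.18 ± 0.51 (SE, limma adjusted p = 0.122 and 0.121). Their r of deviations with REG3A was 0.67 and 0.81, and without HHcy 7 it was 0.12 and 0.71. The third marker, the epithelial cadherin CDH1, was too dim to test, with 95.9, 72.9, 96.2 and 30.1 in HHcy 5 to 8, against 118, 70.3, 21.1 and 80.9 in controls 1 to 4. Its groups overlapped, and it was highest in HHcy 7 and lowest in HHcy 8 among the treated dogs, unlike REG3A. Hepatocyte markers, 10 of 12 and none at 0, summed to 887 to 1823 in HHcy and to 732 to 1340 in controls. The acinar, intestinal and hepatocyte sums were also lowest in HHcy 7 among the treated dogs. The 6 tested hepatocyte markers had an r of deviations with REG3A from 0.33 to 0.89, with a median of 0.45. The highest was that of AHSG, which was 0.48 without HHcy 7.

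Macrophage markers, 11 of 13 on the array and none at 0, summed to 17662, 19273, 14910 and 10312 in HHcy 5 to 8, against 5369 to 8244 in controls. That sum was lowest among the treated dogs in HHcy 8, where REG3A was highest. The markers' r of deviations with REG3A ran from -0.54 to 0.35, with a median of -0.20. CD14, a lipopolysaccharide co-receptor, had a log2 fold change of 1.42 ± 0.32 and FCGR1A, an antibody receptor, 1.52 ± 0.33 (SE, limma adjusted p = 0.121 for each). Neutrophil markers were 3 of 12 on the array, with none at 0. They summed to 324, 218, 180 and 375 in HHcy 5 to 8, against 95.9 to 245 in controls, so the groups overlapped. Among the treated dogs this sum had the full order of the REG3A probe set used for r, with HHcy 8 highest and HHcy 7 lowest. MMP9, the only neutrophil marker tested, had an r of deviations with REG3A of -0.013. The chemokine CXCL8 rose by 3.31 ± 0.41 on the log2 scale (SE, limma adjusted p = 0.0120), and was lowest in HHcy 8 and HHcy 7, at 423 and 441, so it did not follow REG3A among the treated dogs, with an r of deviations of 0.055. It no longer passed without HHcy 5 or without control 2, 3 or 4 (limma adjusted p = 0.0774, 0.0718, 0.0571 and 0.0573). HHcy 5 and HHcy 6, the arrays with the highest 3'/5' ratios, were also the highest for CXCL8, at 885 and 1649. Without both, its log2 fold change was 2.59 (limma adjusted p = 0.0750), and the part of RNA quality in it was not tested.

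**Figure D5:**
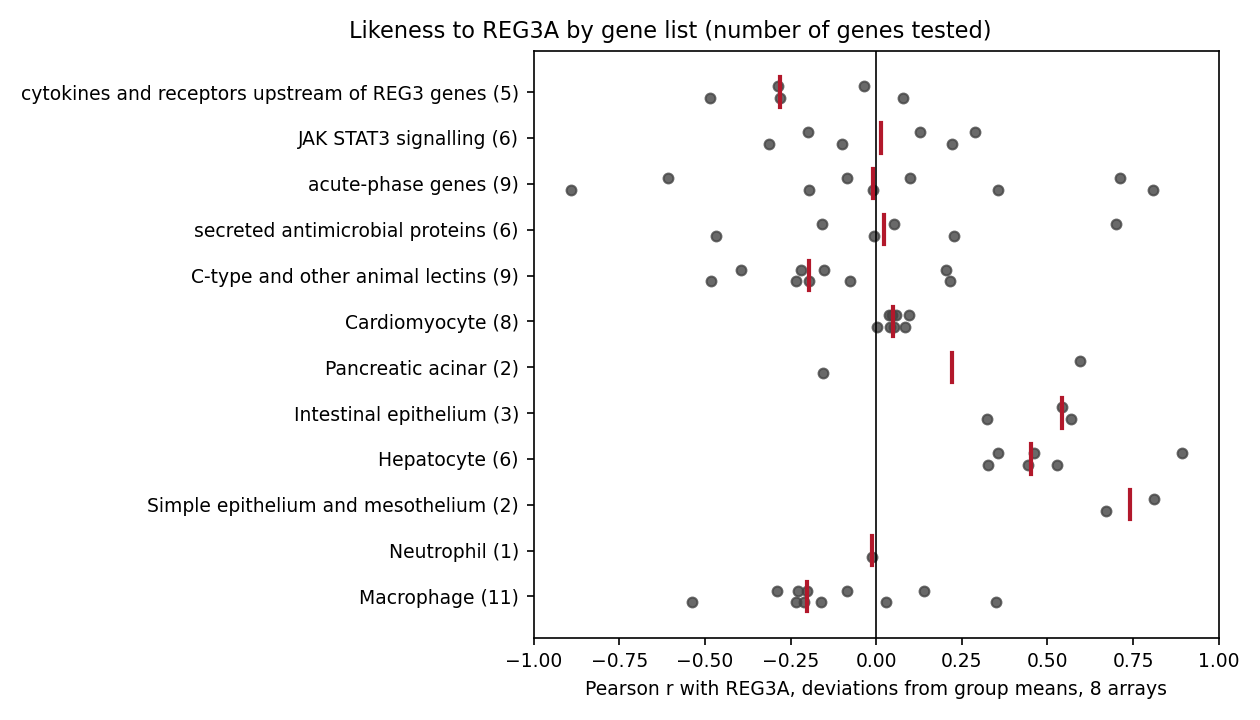
Pearson r of each tested gene with REG3A (1606029_at), computed from deviations from the group means over 8 arrays, by list, 1 point per gene with the list's median in red. The 11 macrophage markers lie between -0.54 and 0.35, the 6 hepatocyte markers between 0.33 and 0.89, and the 2 keratins at 0.67 and 0.81.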

How the data were processed

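The authors deposited 1 linear intensity per probe set and array. The submitters' processing notes name MAS5 without a version. All arrays had a trimmed mean signal of 500.1 units (2% left out at each end), so no scaling was added. Precision is limited by the 4 arrays in each group. Values were analysed as log2(signal + 24), 24 being near the 20th percentile of all values. The 77 control probe sets and the dimmest 40% by mean log2 value were left out, which left 14301. Groups, taken from the titles, were compared with limma 3.58.1 in R 4.3.3 (lmFit, eBayes with an intensity trend, Benjamini-Hochberg threshold 0.05), tested on simulated data. The probe set with the highest mean log2 value over all arrays stands for a gene.

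Genes named were all REG3A probe sets, the 10 highest by each likeness measure, the 5 lowest by deviations, up to 4 members of each list that passed (where none did, the 2 with the smallest p), and 12 fixed genes where tested. The members and lists were chosen with earlier results of these data known. Alternatives were other pseudocounts, scalings, filters, variance models, array weights, probe sets and omitted arrays.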

Additional observations from a re-analysis of the deposited data

Results flagged for a closer look

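Dixon's ratio was taken on log2(signal + 24), while the signals given below are linear. None of the 6 REG3A groups of 4 arrays had a dog far from the others by this ratio (critical value 0.829), the largest ratio being 0.667 for 1585927_at in HHcy. Of 100 groups of 4 examined over REG3A and the named genes, 9 had one, and chance gives about 1 in 20. Many of the named genes were picked by likeness to REG3A, so that rate need not hold for them. No excess is read from the 9. HHcy 7 was far below the other treated dogs for SLC1A1, at 49.0 against 476 to 690, for MVD, at 449 against 553 to 572, and for SHCBP1, at 38.0 against 168 to 210. HHcy 6 was far below for MYL3, at 27.4 against 6933 to 14579, and for TNNT2, at 24.5 against 5900 to 9450. CD14 was lowest in HHcy 8, at 479 against 602 to 621. Among controls, control 3 was highest for KRT18, at 79.0 against 16.9 to 20.3, and lowest for IL33, at 276 against 539 to 585, and control 2 was highest for AFTPH, at 657 against 529 to 547.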

How the results depend on the processing

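No log2 fold change of a REG3A probe set reversed in the 13 alternatives run for each. Without each replicate in turn it ranged from 4.66 to 6.19 for 1606029_at, 5.44 to 6.87 for 1585927_at and 3.05 to 4.22 for 1585928_s_at, and a pseudocount of 96 moved 1585927_at to 4.42. No paired analysis was possible because the groups share no replicate number. SAA1 and C3 passed in all 17 alternatives. The count of called genes in the 6 lists was 2 to 4 without each replicate, 4 without HHcy 8 (SAA1, C3, SERPINA1 and TIMP1) and 6 with array weights (LYZ and FOS in addition), SERPINA1 and TIMP1 being named after their values were seen. CXCL8 passed in 12 of 17, with an adjusted p of up to 0.0774. Over all probe sets the count was 7 with quantile scaling, 22 with median scaling, 9 with the dimmest 60% left out, where fewer were tested, 76 with array weights, 5 without HHcy 5 and HHcy 6, and 3 to 31 without each replicate. It was 9, 3, 4 and 3 without control 1, 2, 3 and 4, 5 without HHcy 5 and 31 without HHcy 8. The median log2 fold change of all compared probe sets, 0.15, was 0.012 with quantile and -0.18 with median scaling. Of the 10 genes most like REG3A over 8 arrays, 5 to 8 stayed without each replicate, 8 with quantile and 7 with median scaling. With median scaling the r of MVD fell to 0.41, that of SLC9A3R1 to 0.854 and that of SERAC1 to 0.845. Of the 10 by deviations, 0 to 7 stayed, 5 with quantile scaling, 6 with the profile of 1585927_at, 1 with that of 1585928_s_at and 5 with the mean of the 3. TFF3, with a log2 fold change of -0.046, turned to 0.10 without HHcy 7 and to 0.093 without control 2 (range without each replicate -0.14 to 0.10). The cause of these shifts was not tested.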

Other observations

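Some genes ran opposite to REG3A among dogs of the same group. TUBD1, ST3GAL5, PSPH, MCL1 and TMEM203 had the lowest r of deviations with 1606029_at, from -0.96 to -0.91, with no test. PSPH, the last enzyme of serine synthesis, had signals of 1547, 2134, 2523 and 1151 in HHcy 5 to 8, against 1009, 1000, 1010 and 1015 in controls 1 to 4. The treated dogs thus lay above the controls but in the reverse order of REG3A, with HHcy 7 highest and HHcy 8 lowest. Its log2 fold change was 0.79 ± 0.27 (SE, limma adjusted p = 0.193), and its r of deviations was -0.95 without HHcy 7. ST3GAL5, a sialyltransferase of ganglioside synthesis, had 505, 563, 760 and 409 in HHcy 5 to 8, against 600 to 697 in controls, and another ST3GAL5 probe set had an r of 0.26.

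The order of treated dogs seen on 1606029_at, HHcy 8 above HHcy 5, HHcy 6 and HHcy 7, was shared by 312 of the 14301 compared probe sets, or 2.18%. Among the 1071 with every HHcy array above every control array it was shared by 26, or 2.43%.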
